A study of Homo sapiens with 12 samples.

Results

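The genes described here are 10 genes of the NF-kB pathway: the subunits NFKB1, NFKB2, RELA and RELB, the inhibitors NFKBIA, NFKBIZ and TNFAIP3, and the target genes TNFAIP2, BIRC3 and ICAM1. They were chosen by symbol, with earlier results of these data known. They are the rows of the deposited count table whose Ensembl identifiers map to these symbols. All 10 were found among the 61541 genes of the table, and all 10 passed the filter on low counts that left 16768 genes for testing. RNA sequencing was done on A549, an established human lung adenocarcinoma line, 14 days after transduction. The control cells (gNTC1) carried a non-targeting guide, and the knockout cells (TS-KO) were made with Cas9 directed at TYMS, the gene of thymidylate synthase. Each kind of cell was grown alone or in co-culture, which gave 4 groups of 3 libraries: the control alone, the control in co-culture, the knockout alone (lone knockout) and the knockout in co-culture. All groups share the A549 label, the transduction and high-glucose medium with serum, and no clone is named for either guide. In co-culture the knockout cells were beside parental A549, with which they proliferated again, according to the series text. Which cells stood beside the control in co-culture, and whether partners were removed before RNA was taken, are not given in the sources used here. The labels do not say that replicates came from separate cultures, so p-values measure only the spread between these libraries, which may be technical.

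NF-kB transcription factors are dimers of Rel-family proteins. RELA and RELB carry activation domains, whereas NFKB1 and NFKB2 encode the precursors p105 and p100, which are processed to the DNA-binding proteins p50 and p52. In the canonical pathway, cytokine and pattern-recognition receptors activate a kinase that marks the inhibitor IkB-alpha, the product of NFKBIA, for degradation, and the freed dimers enter the nucleus. Among the genes they switch on are their own brakes, including NFKBIA and TNFAIP3, which encodes the ubiquitin-editing enzyme A20. In the non-canonical pathway, the kinase NIK, the product of MAP3K14, promotes the processing of p100, which frees RELB dimers. In lung epithelial cells the pathway is known for inducing chemokines and adhesion molecules during inflammation.

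Libraries held 14921371 to 35723762 counts, and replicates of a group correlated at Pearson r of 0.961 to 0.990 over log2 CPM (the usual unit of counts relative to library total, here with totals scaled by the TMM method). TYMS, the targeted gene, was at 90.3 to 101 CPM in the lone control, 90.5 to 95.7 in the co-cultured control, 20.3 to 21.4 in the lone knockout and 10.7 to 11.4 in the co-cultured knockout. Its lower level in the knockout than in the control libraries matched their labels, although 39.1% of the exonic bases of TYMS overlap ENOSF1 on the opposite strand. Within knockout cells TYMS was also lower in co-culture than alone (log2 difference -0.92, edgeR adjusted p = 0.000307). CDKN2A, CDKN2B and MTAP lie in a region that A549 is known to have lost on both copies. The libraries labelled control held CDKN2A at 54.7 to 116 CPM and MTAP at 43.8 to 79.5 CPM, whereas the libraries labelled knockout held CDKN2A at 0 to 0.119 and MTAP at 0.302 to 0.647 CPM. EPCAM, an epithelial adhesion gene, was at 94.4 to 119 CPM in the control libraries and at 0.149 to 0.913 in the knockout libraries. The control libraries thus go against their A549 label in these genes, and a difference between knockout and control libraries cannot be told apart from a difference between the cells from which they came. Comparisons within the knockout libraries or within the control libraries do not cross these labels. Whether co-cultured libraries also hold RNA of partner cells is not given in the sources used here. Each library otherwise expressed epithelial genes: 9 of 9 A549 and epithelial markers were over 1 CPM in control groups and 8 of 9 in knockout groups.

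The sequences upstream of 4 members are shown because these members had a co-culture difference that itself differed between knockout and control cells. Each sequence is the 250 bases before the RefSeq transcription start (GRCh38.p14), read 5′ to 3′ on the gene's strand, at the first start where NFKBIZ has several. Capitals mark matches to the decameric kappa-B consensus, the NF-kB binding motif, which was searched by name on both strands, overlapping matches included.
TNFAIP3, chr6:137867009-137867258, + strand: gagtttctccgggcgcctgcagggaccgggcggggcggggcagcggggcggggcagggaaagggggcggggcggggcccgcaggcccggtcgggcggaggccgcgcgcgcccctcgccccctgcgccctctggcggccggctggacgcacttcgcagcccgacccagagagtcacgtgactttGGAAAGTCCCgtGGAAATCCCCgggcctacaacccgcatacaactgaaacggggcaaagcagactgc
NFKBIA, chr14:35404750-35404999, - strand: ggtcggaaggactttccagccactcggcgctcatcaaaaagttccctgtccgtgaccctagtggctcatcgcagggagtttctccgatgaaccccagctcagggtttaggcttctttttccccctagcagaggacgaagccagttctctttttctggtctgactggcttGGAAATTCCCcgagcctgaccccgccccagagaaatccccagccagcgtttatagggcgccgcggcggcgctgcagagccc
NFKBIZ, chr3:101827740-101827989, + strand: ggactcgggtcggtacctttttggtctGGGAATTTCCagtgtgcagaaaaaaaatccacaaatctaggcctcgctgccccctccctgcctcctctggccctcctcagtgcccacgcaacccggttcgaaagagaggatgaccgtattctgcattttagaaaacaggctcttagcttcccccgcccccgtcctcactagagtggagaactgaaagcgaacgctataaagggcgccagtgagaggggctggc
ICAM1, chr19:10270870-10271119, + strand: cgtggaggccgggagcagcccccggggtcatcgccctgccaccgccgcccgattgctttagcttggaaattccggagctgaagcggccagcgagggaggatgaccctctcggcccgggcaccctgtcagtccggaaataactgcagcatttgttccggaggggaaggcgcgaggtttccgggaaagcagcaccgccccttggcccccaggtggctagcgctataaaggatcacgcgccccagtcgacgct
TNFAIP3 held 2 matches on the opposite strand, GGGACTTTCC from -67 to -58 and GGGGATTTCC from -55 to -46 relative to the start. NFKBIA held 1 match on the opposite strand, GGGAATTTCC from -81 to -72. NFKBIZ held the same 10 letters on its own strand from -223 to -214. The ICAM1 window held none, which says only that these letters are not in it. Over windows of 300 bases (250 before to 50 after the start), the consensus was present in 3956 of 35116 promoters in the RefSeq table, or 11.3%. Among the members, 8 of the 14 windows held it, from 6 of the 9 genes with an entry: NFKBIA, NFKBIZ, TNFAIP3, NFKB1, NFKB2 and BIRC3. The windows of RELA, TNFAIP2 and ICAM1 held none. A looser form of the motif was present in 69.5% of all promoters and in all 14 member windows, those of ICAM1 included. A match is a description of the sequence and was not tested as a binding site.

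**Figure D1:**
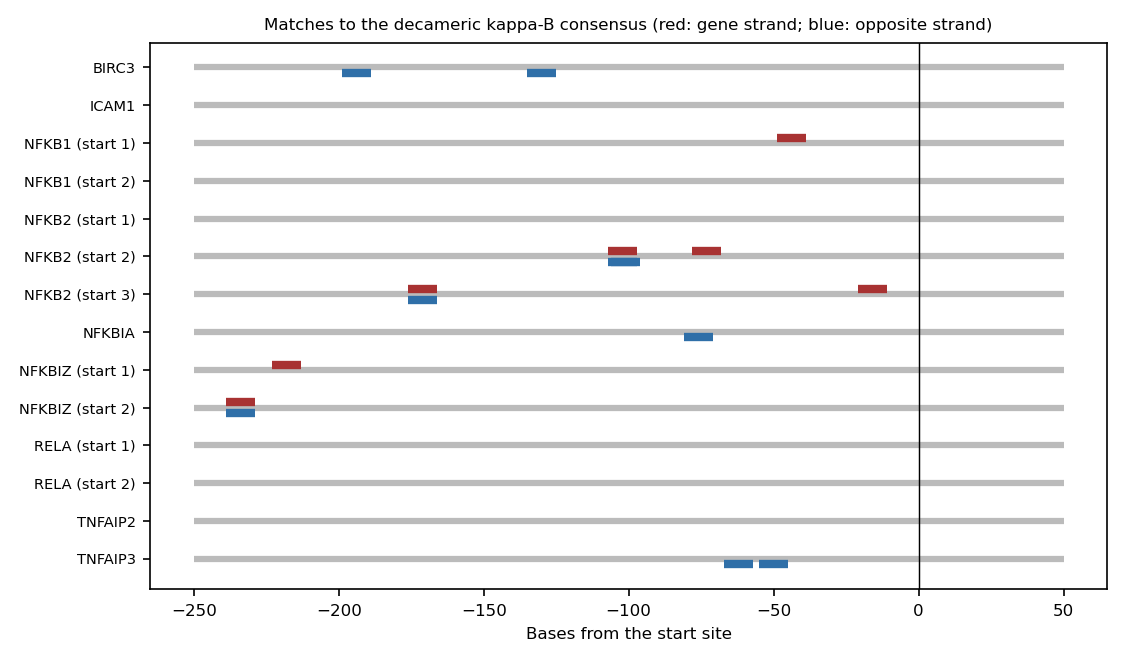
Positions of matches to the decameric kappa-B consensus in the 300-base promoter windows of 9 members, in bases from the transcription start (x axis), with 1 grey line per RefSeq start, red bars for the gene's strand and blue bars for the opposite strand. In TNFAIP3, NFKBIA and the first NFKB1 start the matches lie within 81 bases before the start, whereas in NFKBIZ and BIRC3 they lie at -126 or farther upstream.

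The first comparison asks how the NF-kB genes of knockout cells differed between co-culture and growth alone. That the cells proliferated again in co-culture is taken from the series text. In co-cultured against lone knockout cells, 6 of the 10 members rose and none fell (edgeR quasi-likelihood test, adjusted p under 0.05), whereas 11.4% of all 16768 genes were called, 5.97% higher and 5.40% lower. The 6 were ICAM1, TNFAIP3, NFKBIZ, NFKBIA, TNFAIP2 and RELB. The median log2 difference over the 10 members was 0.95, against 0.01 over all genes tested. In 8 of the 10 the lowest co-cultured knockout library lay above the highest lone knockout library, against 16.7% of all genes, and in none did the opposite hold (14.9% of all genes).

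Of the inhibitors, TNFAIP3 (ENSG00000118503, chr6:137867188-137883312, + strand, all gene positions from GENCODE 29 on GRCh38) had 21.2, 16.6 and 15.3 CPM in the lone knockout libraries R1 to R3 and 81.1, 72.3 and 105 CPM in the co-cultured knockout. All 3 co-cultured libraries lay above all 3 lone ones. The rise was 4.86-fold, a log2 difference of 2.28 ± 0.23 (SE), with an edgeR adjusted p of 9.45e-05. TNFAIP3 removes activating ubiquitin chains from adaptors such as RIPK1 and thereby limits signalling.

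NFKBIZ (ENSG00000144802, chr3:101827991-101861022, + strand) encodes IkB-zeta, a nuclear protein that binds p50 and is needed for induction of a subset of NF-kB targets. It had 29.6, 20.6 and 19.2 CPM in the lone knockout and 70.1, 67.8 and 93.7 CPM in the co-cultured knockout. The groups did not overlap, and the rise was 3.33-fold (log2 difference 1.73 ± 0.24 SE, edgeR adjusted p = 0.000899). NFKBIA (ENSG00000100906, chr14:35401511-35404749, - strand) had 68.4, 81.3 and 78.4 CPM in the lone knockout and 175, 199 and 150 CPM in the co-cultured knockout. Every co-cultured library was again above every lone one, and the rise was 2.30-fold (log2 difference 1.20 ± 0.14 SE, edgeR adjusted p = 0.000304).

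Among the targets, ICAM1 (ENSG00000090339, chr19:10270835-10286615, + strand), the endothelial and epithelial ligand of leukocyte integrins, had 1.61, 2.09 and 1.34 CPM in the lone knockout and 14.2, 15.3 and 13.8 CPM in the co-cultured knockout. The groups were far apart, and the co-cultured libraries were close to each other (14.4 ± 0.773 CPM, SD, n = 3). The rise was 8.52-fold, with a log2 difference of 3.09 ± 0.27 (SE) and an edgeR adjusted p of 3.74e-05. The lone knockout values rest on 22 to 42 counts per library. An antisense gene, AC011511.5, covers 22.0% of the exonic bases of ICAM1, and since the strand setting of the counting is not given in the sources used here, its reads cannot be told apart from those of ICAM1.

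TNFAIP2 (ENSG00000185215, chr14:103123442-103137439, + strand) is a TNF-inducible gene whose product takes part in the formation of membrane tubes between cells. It had 928, 981 and 1133 CPM in the lone knockout and 2281, 2584 and 1790 CPM in the co-cultured knockout. The groups did not overlap, and the rise was 2.19-fold (log2 difference 1.13 ± 0.21 SE, edgeR adjusted p = 0.00524). BIRC3 (ENSG00000023445, chr11:102317450-102339403, + strand) encodes cIAP2, a ubiquitin ligase that restrains cell death and, with TRAF proteins, NIK. It had 11.5, 9.31 and 7.0 CPM in the lone knockout and 5.61, 3.04 and 17.6 CPM in the co-cultured knockout. Its co-cultured libraries R1 and R2 lay below all lone libraries and R3 above them. The log2 difference was -0.09 (SE 0.51, edgeR adjusted p = 0.927), and without co-cultured knockout R3 it was -1.11 (edgeR adjusted p = 0.0288).

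Of the subunits, RELB (ENSG00000104856, chr19:45001430-45038198, + strand) had 51.6, 62.4 and 61.5 CPM in the lone knockout and 103, 125 and 71.0 CPM in the co-cultured knockout. The groups did not overlap, but co-cultured R3 was near the lone libraries. The rise was 1.70-fold (log2 difference 0.77 ± 0.23 SE, edgeR adjusted p = 0.0468). It lost its call in 7 of 15 alternative analyses (adjusted p up to 0.181), among them those without lone knockout R1, R2 or R3 or co-cultured R1 or R2. Leaving out 1 library gave log2 differences of 0.56 to 0.97. NFKB2 (ENSG00000077150, chr10:102394110-102402529, + strand) had 151, 166 and 184 CPM in the lone knockout and 260, 266 and 186 CPM in the co-cultured knockout. Its lowest co-cultured library, R3, was just above the highest lone one, and the log2 difference of 0.51 ± 0.17 (SE) missed the threshold (edgeR adjusted p = 0.0715). NFKB2 passed it in 7 of the 15 alternatives, including DESeq2, the analysis without co-cultured R3, where it was 0.66, and that with GC offsets (gene-wise corrections for GC content), where it was 0.26 (edgeR adjusted p = 0.0185). With GC offsets RELB was at 0.51 (edgeR adjusted p = 0.000482).

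RELA (ENSG00000173039, chr11:65653596-65663094, - strand) had 96.2, 121 and 136 CPM in the lone knockout and 139, 164 and 110 CPM in the co-cultured knockout, and the groups overlapped. NFKB1 (ENSG00000109320, chr4:102501329-102617302, + strand) had 46.8, 43.6 and 42.8 CPM in the lone knockout and 55.1, 48.2 and 52.9 CPM in the co-cultured knockout, without overlap. The log2 difference was 0.23 for RELA (95% interval -0.18 to 0.63, edgeR adjusted p = 0.432) and 0.23 for NFKB1 (95% interval -0.03 to 0.49, edgeR adjusted p = 0.217). Neither passed the test.

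**Figure D2:**
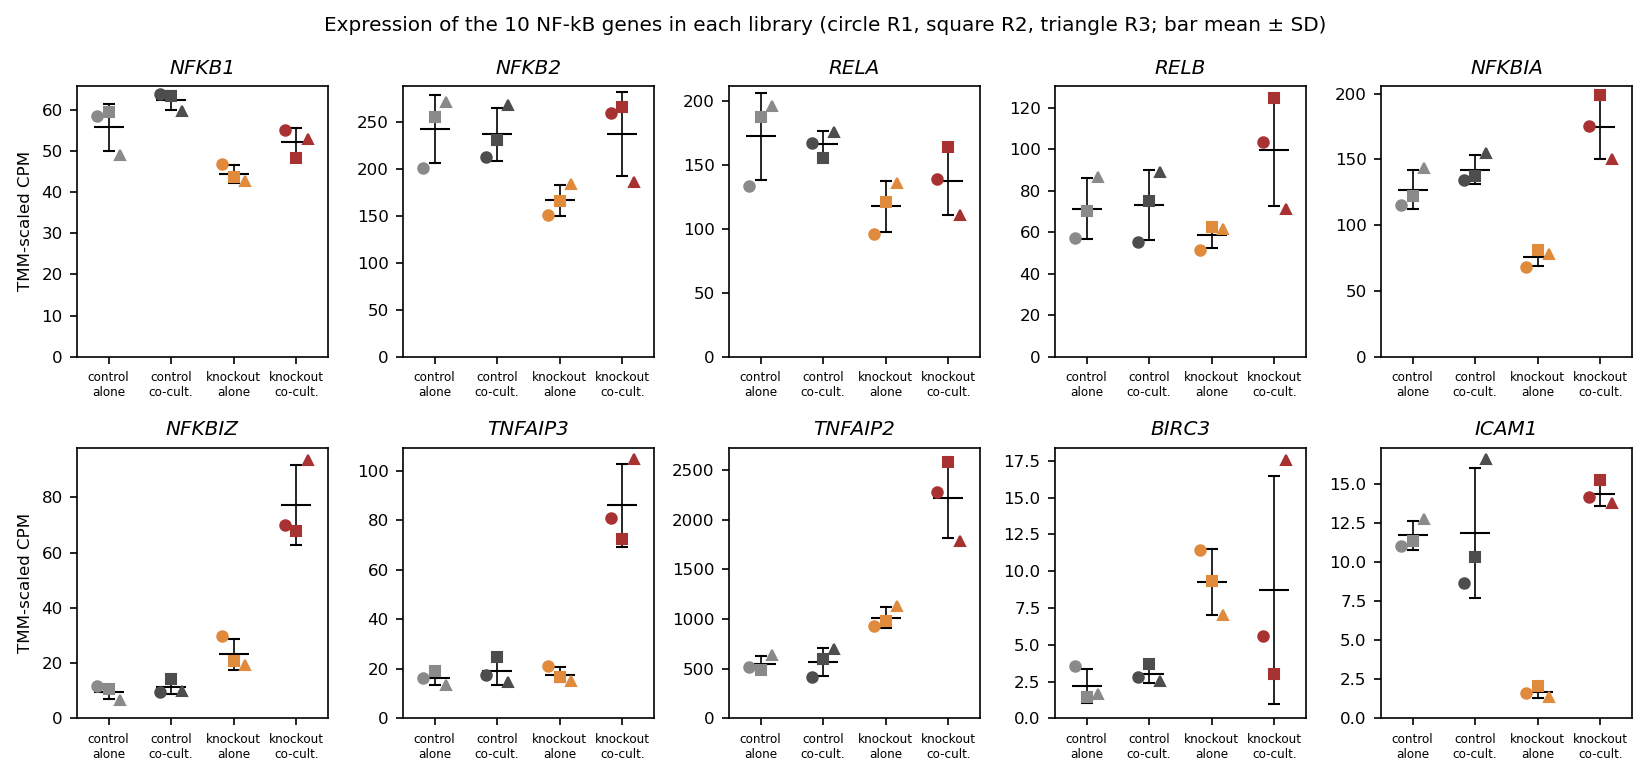
TMM-scaled CPM (y axis, linear from 0) of the 10 NF-kB genes in each of the 12 libraries, by group (x axis), where circles are replicate 1, squares replicate 2 and triangles replicate 3, and bars are the mean ± SD of 3 libraries. ICAM1 lies at 1.34 to 2.09 CPM in the lone knockout and at 8.67 CPM or more in every other group, whereas TNFAIP3 and NFKBIZ are highest in all 3 co-cultured knockout libraries.

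Some markers of other cell types moved with this comparison. The summed level of 6 leukocyte markers was 2.89 to 3.77 CPM in the lone knockout and 7.28 to 11.1 CPM in the co-cultured knockout, with 1 and 3 of the 6 over 1 CPM. Of these, CD14 was at 0.797 to 0.913 and then 2.76 to 4.23 CPM, CD68 at 0.852 to 0.931 and then 2.57 to 3.58 CPM, and CD79A at 1.20 to 2.01 and then 1.87 to 3.10 CPM. In both groups CD3E was 0 and PTPRC at most 0.0423 CPM. LYZ was 0 in the lone and 0.0746 to 0.149 CPM in the co-cultured knockout. Summed fibroblast markers were at 21.6 to 24.5 CPM in the lone and 12.6 to 16.7 CPM in the co-cultured knockout, nearly all of it COL1A1, and summed endothelial markers were at most 0.634 CPM. Since the cells from which RNA was taken are not described further, a smaller share of cells of some type and less RNA per cell cannot be told apart. Genes that were higher in every control library than in any knockout library did not all rise between lone and co-cultured knockout. KRT19, an epithelial keratin, was at 215 to 301 and then 305 to 546 CPM, and CDH1, which encodes E-cadherin, at 15.1 to 19.0 and then 21.8 to 28.1 CPM, both higher in co-culture without overlap. EPCAM (at most 0.517 CPM), MTAP (at most 0.626 CPM) and CDKN2A (at most 0.119 CPM) were near 0 in the co-cultured knockout, and KRT8 overlapped between the groups. Since A549 is known to have lost MTAP and CDKN2A, these genes could not show RNA of parental A549 partners. No group held parental A549 alone. The part of these values in the members' differences was not tested.

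Libraries of the same group differed by base composition, and the cause was not tested. In co-cultured knockout R3 the deviation of a gene from its group mean had a rank correlation of -0.845 with the GC content of its longest transcript, over 10442 genes, and in R2 of the same group it was 0.834. Over the 10 members these values were -0.964 and 0.879, with GC from 34.8% in BIRC3 to 65.4% in RELB. BIRC3, NFKBIZ and TNFAIP3, the members with the lowest GC, were high in R3, while RELB, NFKB2 and TNFAIP2, those with the highest, were low in it. Other groups also held such trends over all genes. R1 and R3 were at -0.693 and 0.694 in the lone knockout and at -0.760 and 0.744 in the lone control. In the co-cultured control they were at -0.621 and 0.740. R2 of these groups lay between, at 0.171, 0.122 and -0.311. GC offsets remove each library's GC trend against the mean of all 12 libraries, and so also GC-related differences between groups. With GC trends so removed, the log2 differences between co-cultured and lone knockout were 2.87 for ICAM1, 2.25 for TNFAIP3, 1.91 for NFKBIZ and 0.17 for BIRC3. With these offsets 7 members were called, all higher, beside 29.1% of all genes. Without co-cultured R3, 8 of the 10 members were called, 7 higher and BIRC3 lower, beside 33.4% of all genes. Leaving out any other of the 6 libraries gave 5 called members, beside 3.13% to 5.91% of all genes.

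**Figure D3:**
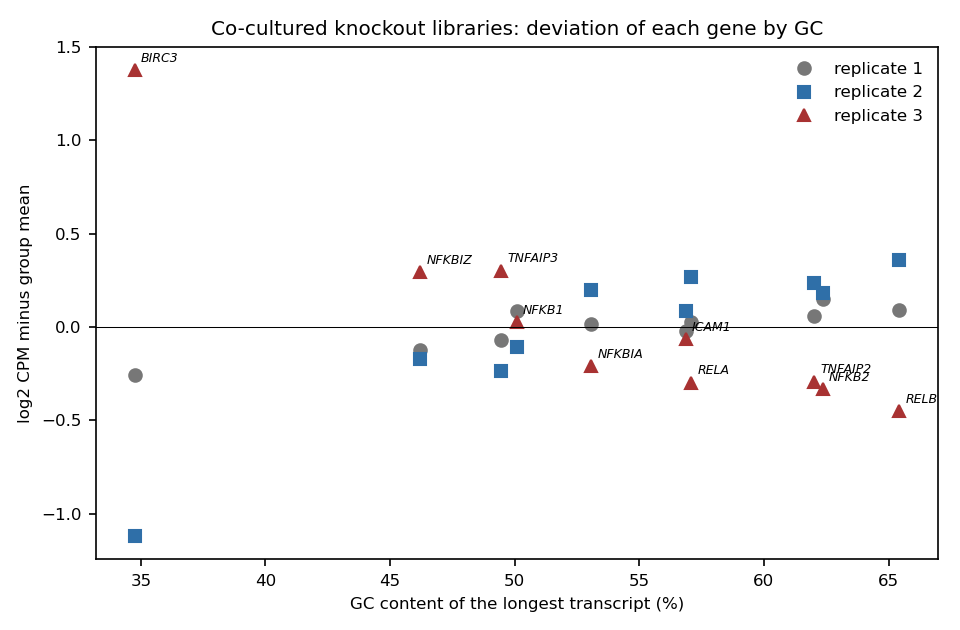
Deviation of each NF-kB gene from its group mean in log2 CPM (y axis) in the 3 co-cultured knockout libraries, against the GC content of its longest transcript in percent (x axis), where colours and shapes are replicates and names stand beside the replicate 3 points. Replicate 3 falls from BIRC3 at 34.8% GC to RELB at 65.4% GC, and replicate 2 runs the opposite way.

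Co-culture was also set against growth alone within the libraries labelled control, which go against their A549 label and whose partner cells are not given. Between co-cultured and lone control cells none of the 10 members was called by edgeR, none had an unadjusted p under 0.05, and DESeq2 called none. Over all genes edgeR called 0 of 16768 (0.00%), with 540 at an unadjusted p under 0.05, and DESeq2 called 0. ICAM1 had 11, 11.4 and 12.8 CPM in the lone control and 8.67, 10.3 and 16.6 CPM in the co-cultured control, so the groups overlapped. TNFAIP3 had 16.1, 19.2 and 13.4 CPM and then 17.4, 24.9 and 14.6 CPM, also with overlap. NFKBIA had 115, 122 and 143 CPM and then 134, 138 and 155 CPM, again with overlap. The log2 difference was 0.02 for ICAM1 (95% interval -0.50 to 0.54), 0.22 for TNFAIP3 (-0.26 to 0.71), 0.16 for NFKBIA (-0.15 to 0.47) and 0.24 for NFKBIZ (-0.30 to 0.77). For BIRC3, at 1.48 to 3.71 CPM in control libraries, the interval was wide, from -0.77 to 1.66. NFKB1 alone had groups that did not overlap, 49.1 to 59.4 CPM alone and 59.6 to 63.9 CPM in co-culture, against 4.48% of all genes in that direction and 2.90% in the opposite one.

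The difference between these co-culture differences, knockout minus control, was tested as an interaction. It passed the threshold for 4 of the 10 members, all in the direction of a larger rise in knockout cells, whereas 1.80% of all genes were called, 1.51% higher and 0.286% lower. The log2 interaction was 3.07 ± 0.36 (SE) for ICAM1 (edgeR adjusted p = 0.00104), 2.06 ± 0.32 for TNFAIP3 (0.00551), 1.50 ± 0.34 for NFKBIZ (0.0471) and 1.04 ± 0.20 for NFKBIA (0.0204). ICAM1 and TNFAIP3 kept this call in all 20 alternative analyses. NFKBIZ lost it in 11 of 20 (adjusted p up to 0.162), including the analyses without lone control R1 or R2, each co-cultured control in turn, lone knockout R2 or R3, or co-cultured knockout R1 or R2, with values of 1.34 to 1.72 when 1 library was left out. NFKBIA lost it in 8 of 20 (up to 0.0811), all without 1 library (lone control R2 or R3, co-cultured control R1 or R2, each lone knockout in turn, or co-cultured knockout R1), with values of 0.92 to 1.14. TNFAIP2 had an interaction of 1.08 ± 0.29 (edgeR adjusted p = 0.0879), RELB of 0.73 (0.248), NFKB2 of 0.54 (0.255) and BIRC3 of -0.54 (0.698). Values were 0.28 for RELA and 0.07 for NFKB1, with edgeR adjusted p of 0.548 and 0.836. Without co-cultured knockout R3, 8 members were called, beside 21.3% of all genes, with TNFAIP2 at 1.22, RELB at 0.93, NFKB2 at 0.69 and BIRC3 at -1.56 (edgeR adjusted p = 0.0401 for BIRC3). With GC offsets 5 were called, beside 8.49% of all genes. TNFAIP2 was then at 0.66 (edgeR adjusted p = 0.0162), RELB at 0.17 (0.377) and NFKB2 at 0.07 (0.683). Since the control libraries go against their label and their partner cells are not given, a difference by knockout cannot be told apart here from one between cells or partners.

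**Figure D4:**
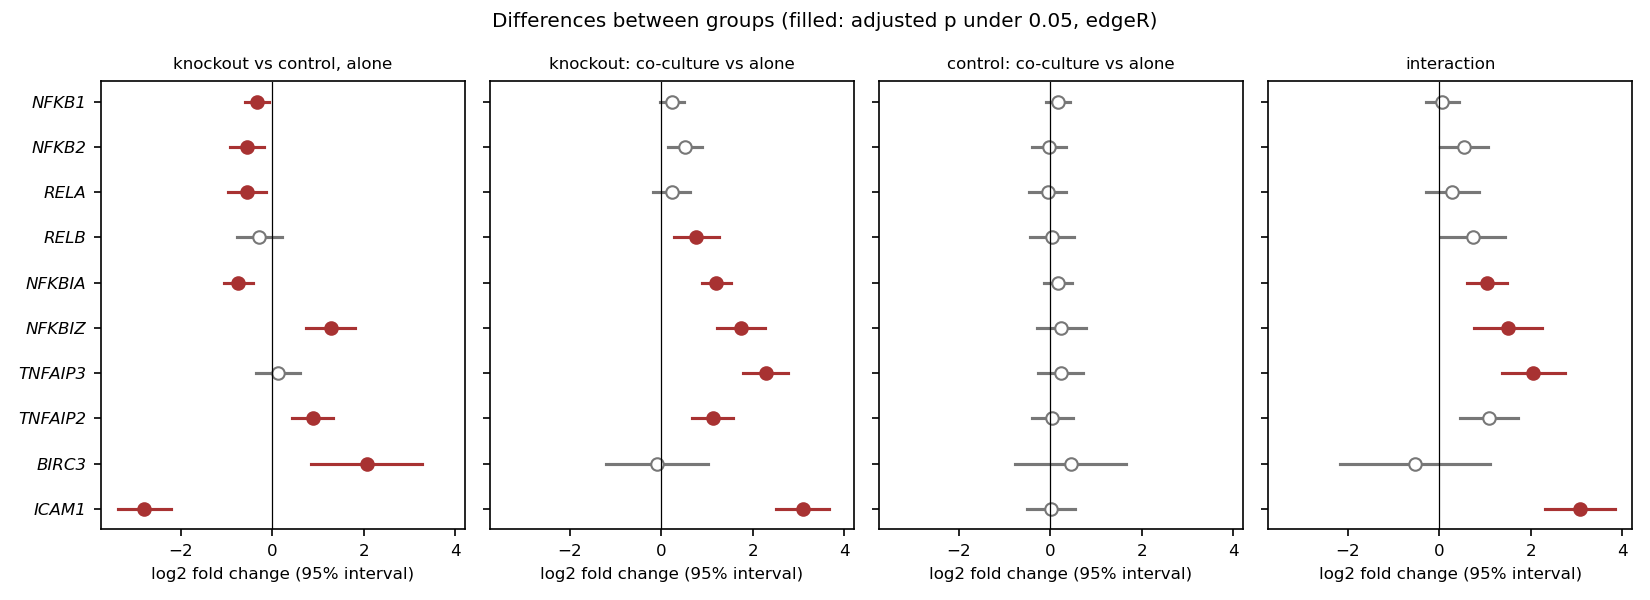
Log2 fold changes of the 10 NF-kB genes (x axis) with 95% intervals from edgeR in 4 comparisons, where filled red points have an adjusted p under 0.05. In control cells every interval between co-culture and growth alone spans 0, whereas in knockout cells 6 members rose, ICAM1 the most at 3.09.

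The next comparison sets lone knockout against lone control cells. Here 8 of the 10 members were called, 3 higher and 5 lower, beside 56.6% of all genes (28.0% higher and 28.6% lower), which is most of the table. The median log2 difference of the members was -0.31, against 0.09 over all genes. The higher members were NFKBIZ, TNFAIP2 and BIRC3, and the lower ones ICAM1, NFKBIA, RELA, NFKB2 and NFKB1. In 3 members all knockout libraries lay above all control libraries (33.8% of all genes) and in 4 below (31.5%).

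BIRC3 had 3.53, 1.48 and 1.64 CPM in the lone control, below its 7.0 to 11.5 CPM in the lone knockout, for a 4.19-fold difference (log2 2.07 ± 0.56 SE, edgeR adjusted p = 0.00691). The control values rest on 24 to 57 counts. NFKBIZ had 11.6, 10.5 and 6.72 CPM in the lone control, below its lone knockout range of 19.2 to 29.6 CPM, a 2.42-fold difference (log2 1.28 ± 0.25 SE, edgeR adjusted p = 0.000792). TNFAIP2 had 518, 492 and 641 CPM in the lone control, and the 928 to 1133 CPM of the knockout were 1.84-fold higher (log2 0.88 ± 0.21 SE, edgeR adjusted p = 0.00280), while with GC offsets the log2 difference was 1.71. These 3 genes were thus higher in lone knockout than in lone control libraries, without overlap between the groups.

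ICAM1 was 6.95-fold lower in lone knockout than in lone control libraries, a log2 difference of -2.80 ± 0.27 (SE, edgeR adjusted p = 2.39e-06), with control libraries at 11 to 12.8 CPM. NFKBIA was 1.67-fold lower (log2 -0.74 ± 0.14 SE, edgeR adjusted p = 0.000752), with control libraries at 115 to 143 CPM, all above the knockout. NFKB2 had 202, 255 and 271 CPM in the lone control, RELA 134, 188 and 196 CPM, and NFKB1 58.5, 59.4 and 49.1 CPM. The log2 differences were -0.54 for NFKB2 (edgeR adjusted p = 0.0167), -0.55 for RELA (0.0236) and -0.33 for NFKB1 (0.0340), and RELA was the called member whose groups overlapped. The other called members had groups that did not overlap.

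The subunits' calls depended on how GC content was treated. The GC offsets also remove GC-related differences between groups, whatever their source. With GC offsets NFKB2 turned to 0.32 (edgeR adjusted p = 0.00160), RELB, which was not called before, to 0.78 (1.08e-06), and RELA to -0.09 without a call. NFKB1 lost its call in 8 of 15 alternatives, among them those without lone control R1 or R2 or lone knockout R2 or R3 (-0.44 to -0.28 without 1 library). NFKB2 lost it without lone control R2 or lone knockout R1 (-0.66 to -0.48 without 1 library), and RELA without lone control R2 or R3 or lone knockout R1 or R2 (-0.71 to -0.43). RELB had 57.1, 70.3 and 86.6 CPM in the lone control, overlapping the knockout, at a log2 difference of -0.29 (95% interval -0.78 to 0.21, edgeR adjusted p = 0.297). TNFAIP3 overlapped as well, at 0.12 (95% interval -0.36 to 0.61, edgeR adjusted p = 0.656). ICAM1, NFKBIA, NFKBIZ, TNFAIP2 and BIRC3 kept direction and call in all 15 alternatives, in cells that also differ by CDKN2A, MTAP and EPCAM. A 2-fold minimum, not among these 15, left 3 members called, 2 higher and 1 lower. Of all genes it left 37.8% called, 19.5% higher and 18.3% lower. NFKBIA at 1.67-fold lower and TNFAIP2 at 1.84-fold higher did not reach it.

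Where both kinds of cell were co-cultured, 4 of the 10 members were called, all higher in the knockout, beside 49.4% of all genes (24.1% higher and 25.3% lower). NFKBIZ had 9.56, 14.2 and 9.99 CPM in the co-cultured control, and the 67.8 to 93.7 CPM of the co-cultured knockout were 6.84-fold higher (log2 2.77 ± 0.25 SE, edgeR adjusted p = 1.67e-06). TNFAIP3 was 4.53-fold higher (log2 2.18 ± 0.23 SE, edgeR adjusted p = 5.83e-06). TNFAIP2 had 413, 596 and 694 CPM in the co-cultured control and was 3.91-fold higher in the co-cultured knockout (log2 1.97 ± 0.21 SE, edgeR adjusted p = 7.12e-06). These 3 did not overlap between the groups, in a direction that 26.9% of all genes shared, and NFKB1 was the member whose co-cultured knockout libraries all lay below (28.5% of all genes).

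BIRC3 had 2.79, 3.71 and 2.53 CPM in the co-cultured control, which overlapped the co-cultured knockout. Its log2 difference of 1.53 ± 0.54 (SE, edgeR adjusted p = 0.0303) was 0.51 without co-cultured knockout R3, where the call was lost. The call was also lost when each of the 3 co-cultured control libraries was left out in turn, and values without 1 library ran from 0.51 to 1.92. ICAM1 and NFKBIA, both lower in lone knockout than in lone control cells, overlapped here, at log2 differences of 0.28 (95% interval -0.24 to 0.79) and 0.30 (95% interval -0.01 to 0.61). RELB had 55.2, 75.0 and 89.2 CPM in the co-cultured control and a log2 difference of 0.45 (95% interval -0.04 to 0.94). For NFKB2, with 212, 231 and 268 CPM in the co-cultured control, it was 0.00 (95% interval -0.37 to 0.37). RELA, with 167, 156 and 176 CPM there, was at -0.27, and NFKB1, with 63.9, 63.4 and 59.6 CPM, at -0.26, with edgeR adjusted p of 0.251 and 0.0901. With GC offsets 9 of the members were called, 8 higher and 1 lower, beside 62.4% of all genes (32.4% higher and 30.1% lower).

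Levels can be compared between genes only per length, here as CPM per kb of exon. On that scale TNFAIP2 was the highest member in every group, at 109 ± 15.9 CPM per kb in the lone control and 441 ± 79.6 in the co-cultured knockout (SD, n = 3). NFKB2 and NFKBIA came next in the lone control at 54.1 ± 8.15 and 53.5 ± 6.16, which do not differ beyond their spread, followed by RELA at 31.5 ± 6.19, RELB at 23.5 ± 4.87 and NFKB1 at 8.90 ± 0.916. TNFAIP3 and ICAM1 were at 3.22 ± 0.572 and 3.17 ± 0.25, again within their spread, NFKBIZ at 1.63 ± 0.432 and BIRC3 at 0.295 ± 0.152. In the lone knockout ICAM1 was the lowest member at 0.453 ± 0.103. In the co-cultured knockout TNFAIP3 and NFKBIZ, at 17.0 ± 3.33 and 13.1 ± 2.43, stood above NFKB1 at 8.32 ± 0.562, an order not seen in the other 3 groups.

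The make-up of the subunits was read on the same scale. Of the summed CPM per kb of NFKB1, NFKB2, RELA, RELB and REL, NFKB2 took 43.6% to 45.8% as a mean in each group. RELB took 22.6% ± 1.0 in the lone knockout and 27.2% ± 2.41 in the co-cultured knockout, and RELA 25.1% ± 1.79 and 21.1% ± 0.893 (SD, n = 3), in both cases without overlap. REL, the subunit best known from lymphocytes, took at most 0.317% in any library. The ratio of NFKBIA to RELA per kb was 1.64, 1.55 and 1.33 in lone knockout libraries, against 2.91, 2.79 and 3.13 in co-cultured ones, and in every control library it lay between 1.5 and 2.04. These shares and ratios were not tested.

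Across the 12 libraries the likeness of the members is given as Pearson r of log2 CPM, where points share group, library depth and base composition. Of 45 pairs 8 were over 0.8 and 13 below 0, from -0.937 between RELA and BIRC3 to 0.932 between NFKBIA and ICAM1. NFKBIZ and TNFAIP3 were at 0.918, and NFKBIZ and TNFAIP2 at 0.916. ICAM1 and NFKBIZ, both higher in co-cultured than lone knockout cells but opposite between lone knockout and lone control, were at 0.0241. Of all tested genes with a symbol, those most like ICAM1 were PGF and MFSD2A (both 0.985), IQCD (0.981), WFDC21P (0.978) and LCN2 (0.976). LCN2, an iron-binding secreted protein and NF-kB target, was at 125 CPM in the lone control, 104 in the co-cultured control, 15.6 in the lone knockout and 215 in the co-cultured knockout.

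Other genes of the pathway were read by 4 lists, also chosen with earlier results of these data known. Co-cultured against lone knockout cells come first. Of the other direct targets, 26 of 30 could be tested and 19 rose, with none lower (edgeR adjusted p under 0.05), which is 73.1% of those tested beside 11.4% of all genes called (5.97% higher), at a median log2 difference of 1.43 against 0.01 over all genes. CXCL1, a neutrophil chemokine, was at 69.8 ± 9.40 CPM in the lone and 1119 ± 95.3 CPM in the co-cultured knockout (SD, n = 3), with a log2 difference of 4.0 ± 0.18 (SE, edgeR adjusted p = 1.71e-07). CSF2, which encodes the growth factor GM-CSF, was at 0.146 ± 0.0954 and 7.32 ± 0.868 CPM, from a few counts per library in the lone knockout. CXCL8, CXCL2, CXCL3, LCN2, PTGS2 and IL6, picked here after their values were seen, were also among the 19, at log2 differences from 3.22 to 3.97. CXCL10, VCAM1 and SELE were too low to be tested, and SOD2 was not matched by symbol.

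In the remaining lists calls went in both directions or were few. Their shares called were 16.0% to 22.2%, against 73.1% of the direct targets. Of all genes 11.4% were called, 5.97% higher and 5.40% lower. Of 25 kinases and adaptors 2 rose and 2 fell (16.0%), at a median of -0.10. IRAK2, an adaptor kinase of interleukin-1 and Toll-like receptors, was at 73.2 ± 1.32 CPM alone and 175 ± 14.2 CPM in co-culture (log2 difference 1.26, edgeR adjusted p = 4.82e-05), and IKBKE, an IkB kinase-related kinase, rose by a log2 difference of 0.95 (0.0150). MAP3K14 fell from 173 ± 18.2 to 78.5 ± 11.4 CPM (log2 difference -1.14, edgeR adjusted p = 0.000674), and TRAF3, which targets NIK for degradation, had a log2 difference of -0.53 (0.0222).

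Of 18 tested other subunits and inhibitors (19 listed) 3 rose and 1 fell (22.2%), at a median of 0.07. ZC3H12A, an RNase that degrades inflammatory transcripts, was at 56.2 ± 0.548 CPM alone and 260 ± 55.1 CPM in co-culture (log2 difference 2.21, edgeR adjusted p = 4.25e-05). TNIP1, a partner of A20, was at 280 ± 36.6 and 663 ± 132 CPM (1.24, edgeR adjusted p = 0.00209), and N4BP1 was the gene that fell (-0.77, 0.0395). Of 15 tested receptors and ligands (23 listed) 3 rose and none fell (20%), at a median of 0.40. IL1B, an activating cytokine, was at 1.10 ± 0.315 and 14.0 ± 0.530 CPM (log2 difference 3.66, edgeR adjusted p = 5.94e-05), and CD40 at 5.97 ± 0.610 and 11.5 ± 1.65 CPM (0.95, edgeR adjusted p = 0.00499). The third was LTB, at 0.260 ± 0.117 and 3.04 ± 1.02 CPM. TNF itself was too low to be tested.

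**Figure D5:**
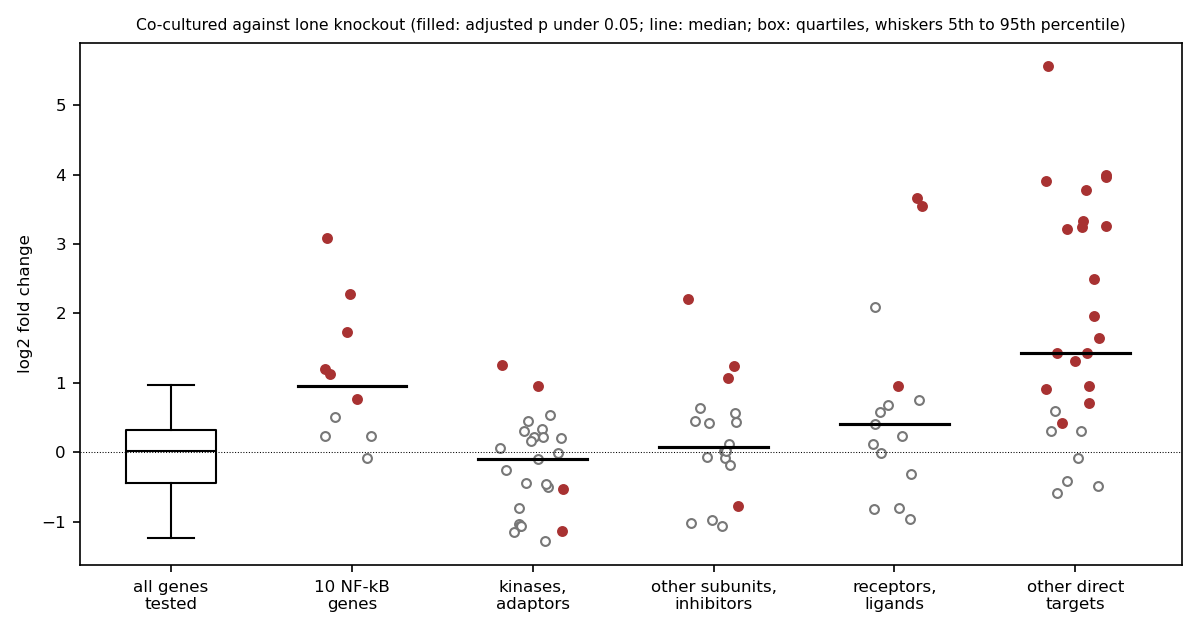
Log2 fold change between co-cultured and lone knockout cells (y axis) for each tested gene of the 10 NF-kB genes and 4 pathway lists (x axis), filled where the edgeR adjusted p is under 0.05, with a line at each list's median and a box for all 16768 genes tested (quartiles, whiskers at the 5th and 95th percentiles). The medians were 0.95 for the 10 genes and 1.43 for the other direct targets, against -0.10 for kinases and adaptors.

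Between lone knockout and lone control cells the lists differed in both directions, beside 56.6% of all genes called. Of the direct targets 8 were higher and 12 lower, and among those at 5 CPM or more BCL2A1 and CFLAR, which both restrain cell death, were highest at log2 differences of 3.67 and 2.42, and PTGS2 and LCN2 lowest at -3.99 and -3.00. By the same minimum level, the kinases and adaptors, 6 higher and 1 lower, ran from MAP3K14 at 3.21 ± 0.17 (SE, 18.7 against 173 CPM) and TAB3 at 1.79 to TAB1 at -1.30. The other subunits and inhibitors, 5 higher and 3 lower, ran from TRAF1 at 2.42 and CYLD at 1.40 to NFKBIL1 at -1.73 and TNIP2 at -1.15. The receptors and ligands, 6 higher and 3 lower, ran from IL1R1 at 2.46 and TNFRSF11A at 1.31 to LTB at -4.31 and CD40 at -2.28. All those named had an edgeR adjusted p of at most 0.00934. In co-cultured against lone control cells none of the 4 lists had a called gene.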

How the data were processed

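RNA from 12 libraries was sequenced. The deposited table holds raw counts per Ensembl gene. The submitters' processing notes name FastQC, STAR 2.7.9a, featureCounts, R 4.2.1 and DESeq2 1.36.0, and GRCh38. The annotation, strand setting and filters are not given in the sources used here. Counts were used as deposited. Symbols matched 42045 of 61541 identifiers, and positions, exon lengths and GC content came from GENCODE 29 (GRCh38).

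Genes kept by filterByExpr (16768) were scaled by TMM and tested with the edgeR 4.0.16 quasi-likelihood F-test (robust, R 4.3.3) in a model of 4 group means over all 12 libraries. Benjamini-Hochberg adjustment covered all genes within each of 5 comparisons, and an adjusted p-value under 0.05 was a call. The biological coefficient of variation was 22.1%. At 1 CPM a gene has 14.9 counts in the shallowest library, so lower genes are limited by counting error. The scripts were tested on simulated counts. The labels do not say that equal replicate numbers pair the samples, so the main fit had no block. Deviations from the group mean correlated between same-numbered libraries at -0.855 to 0.779, and a replicate block was run as an alternative.

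The 10 members and the 4 pathway lists were chosen with earlier results of these data known. From each list the genes named are the 2 highest and 2 lowest called ones at 5 CPM or more in the higher group, in co-cultured against lone knockout and in lone knockout against lone control. TYMS and genes lost in A549 served as checks. Alternatives were DESeq2 1.42.0, other scaling, filters, GC offsets, a replicate block, fits of only the groups compared, a 2-fold minimum and leaving out each library. The 2-fold minimum was applied to counts of called genes and members. It is not among the 15 or 20 alternatives given for a single member.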

Additional observations from a re-analysis of the deposited data

Results flagged for a closer look

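The co-culture difference differed between knockout and control cells, by the edgeR interaction test, for 4 of the 10 NF-kB genes, beside 1.80% of all genes. The log2 interaction (knockout minus control) was 3.07 for ICAM1 (edgeR adjusted p = 0.00104), 2.06 for TNFAIP3 (0.00551), 1.50 for NFKBIZ (0.0471) and 1.04 for NFKBIA (0.0204). All 3 co-cultured knockout libraries lay above all 3 lone knockout libraries for each of them. NFKBIZ lost its call in 11 and NFKBIA in 8 of 20 alternative analyses, whereas ICAM1 and TNFAIP3 kept theirs in all 20. Leaving out 1 library gave 2 to 8 called members: 8 without co-cultured knockout R3, beside 21.3% of all genes, and 2 without lone control R2, co-cultured control R1 or R2, lone knockout R2 or R3, or co-cultured knockout R1, beside 0.695% to 0.997% of all genes.

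Among the other pathway genes named, the interaction was 0.99 for IRAK2 (edgeR adjusted p = 0.00810), 2.06 for ZC3H12A (0.00227), 1.20 for TNIP1 (0.0461) and 1.09 for CD40 (0.0389). It was 3.24 for IL1B (edgeR adjusted p = 0.0362), 3.75 for CXCL1 (4.96e-06), 3.17 for PTGS2 (0.00803) and 4.04 for LCN2 (6.68e-05). For MAP3K14 it was -1.40 (edgeR adjusted p = 0.00595), where the co-culture difference was -1.14 in knockout cells and 0.27 in control cells, the latter not called. Values were 3.95 for LTB (edgeR adjusted p = 0.00638) and 4.31 for CSF2 (0.00390), which are at 0.260 and 0.146 CPM in the lone knockout, so their size depends on a few counts. No cause of these differences was tested.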

How the results depend on the processing

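Of 800 values of the 10 members under alternatives, 681 kept direction and call, 48 lost and 31 gained a call, and 40 changed sign. Of 22 called results 15 held under each of these alternatives, which leave out the 2-fold minimum. Scaling by library size alone moved the median of all genes in lone knockout against control from 0.09 to 0.24, and that of the interaction from 0.01 to -0.11. Unless a value or the make-up of an alternative shows it, the cause was not tested.

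Genes called between co-cultured and lone knockout (1907) became 3340 with no filter, 3238 with DESeq2, 664 with only the groups compared, 1080 with the replicate block, 4881 with GC offsets, 4183 with GC offsets and block and 1059 at 2-fold, and 536 to 5680 without 1 library. The interaction's 301 became 1342 with no filter, 890 with DESeq2, 179 with the replicate block, 1424 with GC offsets, 907 with GC offsets and block, and 119 to 3623 without 1 library. Co-cultured knockout against control (8276) gave 5259 at 2-fold, and co-cultured against lone control gave 2 genes with no filter. In both ranges the highest count came without co-cultured knockout R3.

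Members called in lone knockout against control (8) became 3 at 2-fold and 5 to 7 without 1 library. In co-culture 4 became 9 with GC offsets and 8 with GC offsets and the block. In the interaction 4 became 2 to 8 without 1 library. With the replicate block 7, 5, 3, 0 and 3 members were called in the 5 comparisons; 18 pairs of same-numbered libraries correlated at -0.855 to 0.779, with 8 over 0.1.

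Sign changes in lone knockout against control, with GC offsets and also with the block added, were 0.32 for NFKB2 and 0.78 for RELB. Without 1 library TNFAIP3 ran from -0.03 to 0.25. BIRC3 in co-cultured against lone knockout was 0.01 with no filter, 0.17 with GC offsets, 0.13 with the block added, and -1.11 to 0.32 without 1 library. NFKB2 in co-cultured knockout against control ran from -0.12 to 0.15 without 1 library.

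The rest were changes near 0. In co-cultured against lone control NFKB2 was 0.04 by library size alone, 0.18 with GC offsets with or without the block, and -0.15 to 0.05 without 1 library. RELA was 0.03, 0.04 and 0.05 under the same 3 alternatives and -0.21 to 0.05 without 1 library. ICAM1 was -0.00 with DESeq2 size factors and with the block, and -0.31 to 0.20 without 1 library. Without 1 library RELB ran from -0.13 to 0.20, TNFAIP3 from -0.02 to 0.38 and TNFAIP2 from -0.13 to 0.23. In the interaction NFKB1 was -0.04 by library size alone, and RELA -0.03 with GC offsets and -0.04 with the block added.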
